A study of Mus musculus with 5 samples.

Results

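The interferon-gamma-induced GTPases described here were 10 genes of mouse CD4 T cells: the guanylate-binding protein (GBP) genes Gbp2, Gbp3, Gbp5, Gbp6 and Gbp7 and the immunity-related GTPase (IRG) genes Irgm1, Irgm2, Igtp, Iigp1 and Tgtp1. They were chosen by name, as known members of these families, and found through the RefSeq accession that each array probe carries. They are 10 of the 21366 genes measured on all 5 arrays, and 13 probes represent them. All 13 probes were well above background on all 5 arrays, so each member had a measured level in every culture and no value was a bound.

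The study profiled mRNA of cultured CD4 T cells that started as naive cells from the spleen of C57BL/6 mice, with 1 one-colour Agilent array for each of 5 cultures. The Th1 culture had 4 days of stimulation through CD3 and CD28 with IL-2, IL-12 and a block of IL-4. Th1+TGFb were such Th1 cells after 4 more days in the regulatory T cell medium, which held CD3 and CD28 stimulation, IL-2, TGF-beta and antibodies against IFN-gamma and IL-4. Rested cells were Th1 cells after 4 more days with IL-2 and the antibodies against IFN-gamma and IL-4, without CD3 and CD28 stimulation and without TGF-beta. Th1reg were rested cells after another 4 days in the regulatory medium, 12 days in all. The iTreg culture was naive cells kept for 4 days in that medium. IL-4 was thus blocked and IL-2 present in all 5 cultures, and IFN-gamma was blocked in the last step of every culture but Th1. The labels do not say how many animals gave the cells or whether they were pooled. With 1 array per culture there was no spread between samples, so no test, p-value or interval between cultures could be had, and each difference below compares 2 arrays.

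GBPs and IRGs are GTPases that cells make after interferon signalling and that act inside the cell against bacteria and parasites living in vacuoles. IFN-gamma binds its receptor, the kinases JAK1 and JAK2 pass the signal on to factors that bind gamma-activated sites (GAS), and interferon regulatory factors such as IRF1 bind interferon-stimulated response elements (ISRE). Among the IRGs, Irgm1, Irgm2 and Igtp (also named Irgm3) belong to the regulatory group that protects the cell's own membranes, and Iigp1 (Irga6) and Tgtp1 (Irgb6) to the effector group that coats the vacuole.

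The promoter windows of 5 members are shown because they hold the motifs through which this pathway is known to act and because these genes include members lower in rested than in Th1 (Gbp2 and Gbp5), higher there (Irgm2 and Tgtp1) and near the same level (Igtp). Each window runs from 250 bases before to 50 bases after the annotated transcription start, 5′ to 3′ on the gene's strand, in RefSeq's annotation of GRCm38.p6. Capitals mark ISRE matches (GAAANNGAAA, or TTTCNNTTTC on the other strand) and GAS matches (TTCNNNGAA, which reads the same on both strands). The windows lie at chr3:142620413-142620712 on the plus strand for Gbp2, chr3:142496684-142496983 (plus) for Gbp5, chr11:58214727-58215026 (plus) for Irgm2, chr11:58199306-58199605 (plus) for Igtp and chr11:48992197-48992496 (minus) for Tgtp1.
Gbp2: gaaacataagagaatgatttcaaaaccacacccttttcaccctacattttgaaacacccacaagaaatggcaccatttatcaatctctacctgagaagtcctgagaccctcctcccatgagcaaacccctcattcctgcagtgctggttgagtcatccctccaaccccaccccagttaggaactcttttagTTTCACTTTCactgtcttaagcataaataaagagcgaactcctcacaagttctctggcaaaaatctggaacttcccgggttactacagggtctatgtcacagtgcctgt
Gbp5: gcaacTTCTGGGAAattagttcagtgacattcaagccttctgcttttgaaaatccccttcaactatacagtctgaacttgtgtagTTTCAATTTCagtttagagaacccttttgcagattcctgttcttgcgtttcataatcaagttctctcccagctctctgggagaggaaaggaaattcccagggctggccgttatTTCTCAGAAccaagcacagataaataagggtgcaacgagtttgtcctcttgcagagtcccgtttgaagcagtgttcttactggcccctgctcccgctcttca
Irgm2: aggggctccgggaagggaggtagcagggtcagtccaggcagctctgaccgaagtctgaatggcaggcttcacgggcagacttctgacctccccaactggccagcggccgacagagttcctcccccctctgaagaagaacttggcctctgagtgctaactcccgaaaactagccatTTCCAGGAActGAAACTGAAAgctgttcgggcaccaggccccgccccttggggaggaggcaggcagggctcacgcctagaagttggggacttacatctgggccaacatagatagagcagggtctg
Igtp: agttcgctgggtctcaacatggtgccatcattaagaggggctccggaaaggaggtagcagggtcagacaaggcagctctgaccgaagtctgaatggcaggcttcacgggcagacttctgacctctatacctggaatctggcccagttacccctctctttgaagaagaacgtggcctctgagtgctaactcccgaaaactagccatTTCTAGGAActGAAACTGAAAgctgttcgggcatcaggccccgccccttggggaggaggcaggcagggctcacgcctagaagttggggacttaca
Tgtp1: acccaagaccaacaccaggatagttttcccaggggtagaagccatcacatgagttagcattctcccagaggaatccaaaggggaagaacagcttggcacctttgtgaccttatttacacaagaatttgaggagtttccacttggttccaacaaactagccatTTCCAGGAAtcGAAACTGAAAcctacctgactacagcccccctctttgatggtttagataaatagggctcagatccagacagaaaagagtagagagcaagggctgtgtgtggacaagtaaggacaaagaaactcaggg

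Promoter windows of 8 of the 10 members were searched, and all 8 held an ISRE match, against 3.44% of 32851 windows of all genes. Gbp6 and Iigp1 had no window in the search of members. A single chromosome had been left out of that search by choice, which need not account for both genes. The count does not cover these 2 genes. A GAS match lay in the windows of 5 members (Gbp5, Gbp7, Irgm2, Igtp and Tgtp1), against 8.30% of all windows. An ISRE and a GAS match together were found in 0.454% of all windows. An NF-kappaB motif (GGGANNTTCC, or GGAANNTCCC on the other strand) lay in the windows of Gbp2 and Gbp5, against 1.47% of all windows, and is not in capitals above. In Irgm2, Igtp and Tgtp1 the GAS match stood 2 bases before the ISRE match, as TTCNNNGAANNGAAANNGAAA. This arrangement was noticed in the members first and then searched for on both strands, and it occurred in 5 of the 32851 windows (0.0152%): those 3 and the related IRG genes Tgtp2 and Gm12185. These 5 genes are related copies and share sequence beyond the motif, with 83.3% of the aligned bases identical between the windows of Tgtp1 and Tgtp2, so they are not independent cases. Irgm1 and the first of the 2 starts of Gbp3 each had 2 overlapping ISRE matches and no GAS match. A match describes these letters only, and its absence says nothing about binding.

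**Figure D1:**
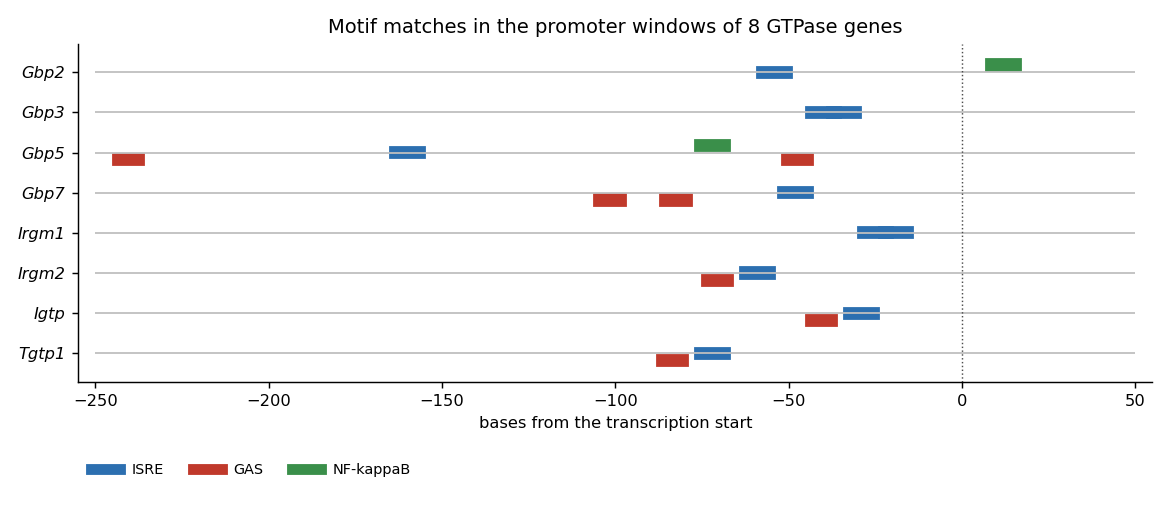
Positions of ISRE (blue), GAS (red) and NF-kappaB (green) matches in the promoter windows of 8 members, 1 line per gene, on an axis of bases from the transcription start (dotted line). All 8 hold an ISRE match, and in Irgm2, Igtp and Tgtp1 a GAS match lies directly before it.

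Levels are given as scaled log2 signal: log2 of the probe's background-corrected signal minus log2 of its array's 75th percentile, so that 0 is the 75th percentile of all probes on that array. These values set 1 probe on 1 array against the same probe on another and do not rank genes by abundance. The 75th percentiles ran from 144 on the rested array to 306 on the Th1reg array. Repeat spots gave the technical error, from each array's median SD over probes. Combined for 2 arrays, the SD of a difference was at most 0.085 log2 units at signals of 100 or more, the range in which all members lay (lowest 116, Tgtp1 in Th1). This technical SD describes a typical probe, and single probes can exceed it. Igtp had 10 spots on each array, and their SD was 0.035 to 0.054. How much cultures of one kind vary is not part of this error. The 5 arrays shared 1 slide and 1 scan time. All 7 measured T cell markers, among them Cd3e, Cd4 and Lck, were well above background on all 5 arrays.

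Gbp2, a GBP that gathers on pathogen vacuoles, had scaled log2 signals of 7.38 in Th1, 4.57 in rested, 4.29 in Th1reg, 6.95 in Th1+TGFb and 4.47 in iTreg. Both cultures at the top came from Th1 cells that had not been rested, and the next level was 5.24-fold lower. The levels in rested, iTreg and Th1reg followed each other by 0.10 and 0.18 log2 units. Gbp5, known for promoting inflammasome assembly, stood at 5.37 in Th1, 2.39 in rested, 3.56 in Th1reg, 4.34 in Th1+TGFb and 3.18 in iTreg. It too was highest in Th1, but it was lowest in rested, with Th1reg and iTreg in between. Gbp3 went down by smaller steps, from 3.80 in Th1 through 3.56 in Th1+TGFb, 3.01 in rested and 2.84 in Th1reg to 2.40 in iTreg. Gbp7, a GBP linked to host defence in macrophages, had levels of 1.95 in Th1, 1.84 in rested, 0.82 in Th1reg, 1.81 in Th1+TGFb and -0.87 in iTreg. The levels in Th1, rested and Th1+TGFb lay close together, and iTreg was 3.23-fold below the next culture, Th1reg. Gbp6 had another order, with 2.44 in Th1, 4.62 in rested, 1.28 in Th1reg, 3.10 in Th1+TGFb and 0.98 in iTreg. Its range was the widest of the members, 12.4-fold between rested and iTreg. The second Gbp6 probe gave 1.94, 2.83, 1.03, 2.73 and -0.15 in the same order of cultures, again highest in rested and lowest in iTreg, though there rested and Th1+TGFb lay close together. Gbp6 and Gbp10 are near-identical copies, so the Gbp6 signal is uncertain as to which of them it reports.

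The regulatory IRG gene Irgm1 varied little, with 4.09 in Th1, 4.75 in rested, 3.90 in Th1reg, 4.25 in Th1+TGFb and 3.51 in iTreg. Its second probe kept the rested culture highest and iTreg lowest, at 3.02 and 1.72. Irgm2 stood at 3.36 in Th1, 4.84 in rested, 3.29 in Th1reg, 3.33 in Th1+TGFb and 3.30 in iTreg. Rested stood apart, and the other 4 cultures lay within steps of 0.01 to 0.03 log2 units, less than the technical SD. Igtp, which has 10 spots per array, gave 7.53 in Th1, 7.46 in rested, 7.03 in Th1reg, 6.47 in Th1+TGFb and 6.76 in iTreg. Th1 and rested differed by 0.07 log2 units, and Th1+TGFb was the lowest culture, which was the case for no other member in the main scaling. Irgm2 was lowest there too with spike-ins and with normexp, and Iigp1 with spike-ins. Of the effector IRGs, Iigp1 stood at 1.25 in Th1, 1.82 in rested, 1.65 in Th1reg, 1.01 in Th1+TGFb and 0.81 in iTreg. Its 2 probes disagreed on the top culture: the second gave 0.78, 1.16, 1.30, 0.70 and 0.33, highest in Th1reg. Tgtp1 had -1.04 in Th1, 0.71 in rested, -1.11 in Th1reg, -0.59 in Th1+TGFb and -0.23 in iTreg. Tgtp1 shares near-identical sequence with Tgtp2, so its signal is uncertain as well.

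**Figure D2:**
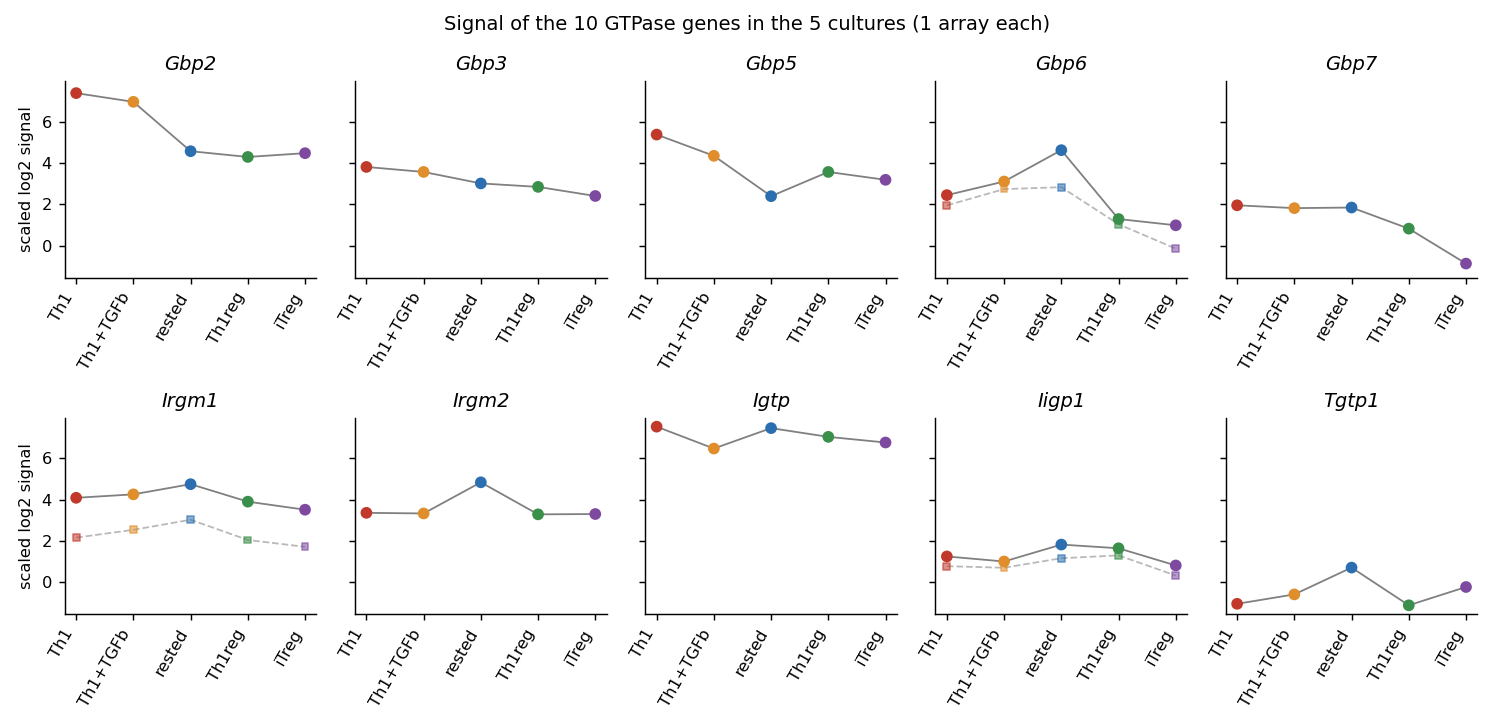
Scaled log2 signal (vertical axis) of each member in the 5 cultures (horizontal axis, 1 array each), with the probe that stands for the gene as circles and a second probe, where one exists, as small squares. Gbp2, Gbp3, Gbp5 and Gbp7 are highest in Th1, and Gbp6, Irgm1, Irgm2, Iigp1 and Tgtp1 are highest in rested. Lines join the cultures of 1 probe and stand for no time course.

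Across the 10 members, Th1 held the highest level for 5 (Gbp2, Gbp3, Gbp5, Gbp7 and Igtp) and rested for the other 5. With spike-ins rested held 2, and with the 75th percentile of detected probes Th1 held 2. The lowest level in the main scaling lay in iTreg for 5 members, in Th1reg for 3, and in Th1+TGFb and rested for 1 each. With spike-ins it lay in iTreg for Gbp6 and Gbp7 only. It then lay in rested for Gbp2, Gbp3, Gbp5 and Irgm1, in Th1+TGFb for Irgm2, Igtp and Iigp1, and in Th1 for Tgtp1. The median range between a member's highest and lowest culture was 1.69 log2 units, against 1.29 for the 10716 genes well above background on all arrays. The GBPs Gbp2, Gbp5, Gbp6 and Gbp7 had ranges of 7.06-fold to 12.4-fold and Gbp3 one of 2.65-fold. The IRGs had ranges of 2.01-fold (Iigp1) to 3.54-fold (Tgtp1). Of the 40 steps between neighbouring levels in the members' orders, 6 were under the technical SD and 6 were 2-fold or more, so most orders rest on small steps.

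Rested cells, in which CD3 and CD28 stimulation and IL-12 had been withdrawn and IFN-gamma blocked, were set against the Th1 cells they came from. Gbp5 was 7.90-fold and Gbp2 7.02-fold lower in rested, while Gbp6 was 4.52-fold, Tgtp1 3.37-fold and Irgm2 2.78-fold higher. The other 5 members were less than 2-fold apart. So 3 of 10 members were at least 2-fold higher, where 17.5% of all genes were, and 2 of 10 were at least 2-fold lower, where 26.7% of all genes were. The members' median was 0.25 log2 units, and that of all genes -0.29. The rested array was the dimmest, and scaling to spike-in RNA lowers every difference here by 1.16 log2 units. With spike-ins the log2 difference was -3.97 for Gbp2, -4.14 for Gbp5 and 1.01 for Gbp6, each still at least 2-fold, but 0.59 for Tgtp1 and 0.32 for Irgm2. The Gbp6 values are those of its brighter probe. Its second probe stood at 1.94 in Th1 and 2.83 in rested, under 2-fold higher and by less than the spike-in shift. The summed markers of B cells and of myeloid cells were also highest in rested. The 7 B cell markers summed to scaled log2 levels of 0.16 to 1.61 in the other cultures and 2.51 in rested, with Cd22 and Cr2 well above background on 5 arrays, Ms4a1 on 4 and Cd79b on 3, and Cd79a and Pax5 on 0. The 10 myeloid markers summed to 8.63 to 10.14 elsewhere and 10.76 in rested, with Csf1r, Itgam, Siglech and Csf3r well above background on 5 arrays, Cd14 on 3 and Adgre1 on 1, and Lyz2, Lyz1, S100a8 and S100a9 on 0. Their part in the rested levels was not tested. Fewer cells of a type and less RNA per cell cannot be told apart in such bulk samples.

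Th1+TGFb cells, moved straight into the regulatory medium, differed less from Th1. Igtp was 2.08-fold and Gbp5 2.04-fold lower in Th1+TGFb, and the remaining 8 members were under 2-fold apart. No member was 2-fold higher, where 11.3% of all genes were, and 2 of 10 were 2-fold lower, where 7.8% of all genes were. Both folds were just past the threshold, and scaling to the median or the 75th percentile of the probes detected on all arrays took both under it. Gbp6 was the member furthest in the other direction, 0.66 log2 units above Th1. The 6 markers of CD8 T and NK cells summed to scaled log2 levels of 0.84 to 1.83 elsewhere and 3.49 in Th1+TGFb, with Cd8b1 well above background on 5 arrays, Klra8 and Klri2 on 4 and Cd8a on 1, and Ncr1 and Klrb1c on 0. Their part in these differences was not tested.

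Th1reg cells, set against the Th1 cells at the start of their lineage, had lower GBP levels. Gbp2 was 8.50-fold lower, Gbp5 3.50-fold, Gbp6 2.23-fold and Gbp7 2.19-fold. The second Gbp6 probe, at 1.94 in Th1 and 1.03 in Th1reg, was under 2-fold lower. Gbp3 lay just under the threshold at -0.96 log2 units. The 5 IRGs lay between -0.49 (Igtp) and 0.40 (Iigp1) log2 units from Th1. The count was 4 of 10 members 2-fold lower, against 8.57% of all genes, and 0 of 10 higher, against 6.29%. Gbp2 and Gbp5 were also more than 2-fold lower under each other scaling and background correction tried, while with spike-ins Gbp6 stood at -0.85 and Gbp7 at -0.82, and Gbp7 stayed past 2-fold in 3 of the 5.

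The iTreg culture and the Th1 culture both started from naive cells and lasted 4 days. All 5 GBPs were at least 2-fold lower in iTreg: Gbp2 7.49-fold, Gbp7 7.06-fold, Gbp5 4.56-fold, Gbp6 2.75-fold and Gbp3 2.65-fold. Of the 5 IRGs none was 2-fold apart, and their log2 differences were -0.77 for Igtp, -0.58 for Irgm1, -0.44 for Iigp1, -0.06 for Irgm2 and 0.81 for Tgtp1. The count was 5 of 10 members lower, against 17.8% of all genes, and 0 of 10 higher, against 10.8%. Each of the 5 GBP differences stayed past 2-fold with spike-ins, with the median and the 75th percentile of detected probes, with normexp and in the deposited value table, which has nearly the main scaling. T cell markers were lower in iTreg too: 5 of 7 by at least 2-fold and none higher, with a median of -1.38, and their summed scaled log2 level was 9.47 there against 10.17 to 10.69 in the other cultures. Their part in the GBP differences was not tested. Tgtp1 was past 2-fold in the higher direction in 2 of those 5, with spike-ins and, at 1.19, with the 75th percentile of detected probes.

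**Figure D3:**
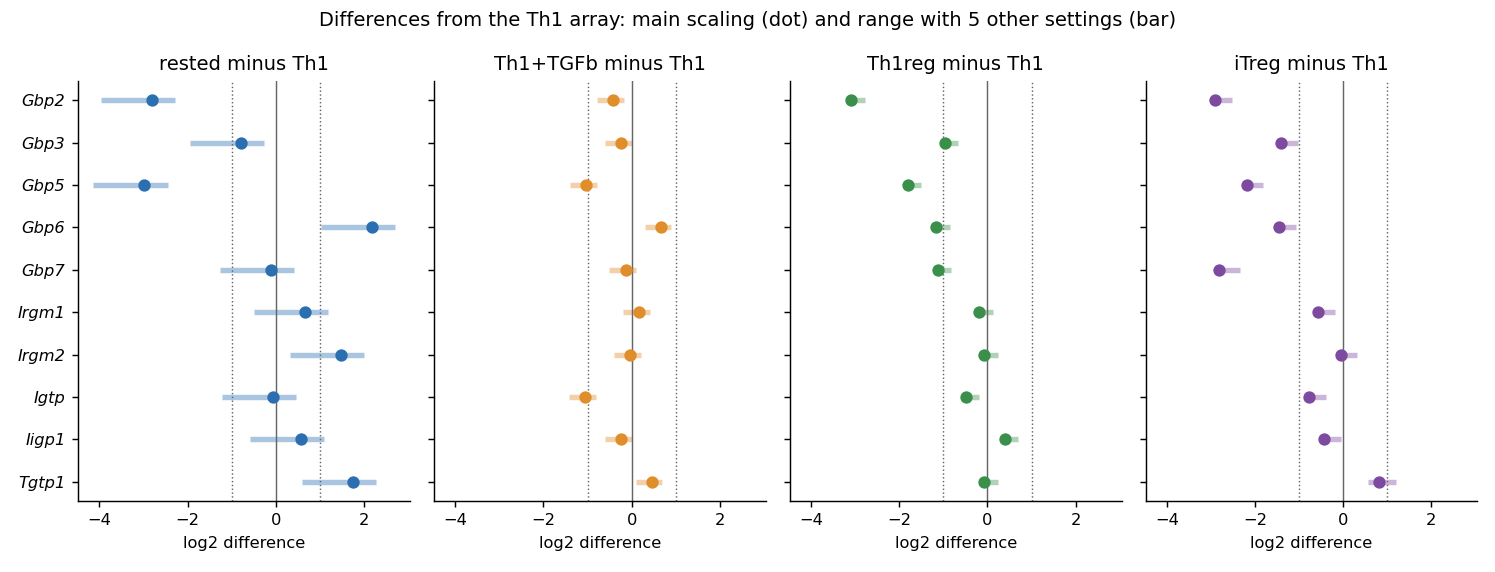
Log2 difference of each member from the Th1 array (horizontal axis) in rested, Th1+TGFb, Th1reg and iTreg, with the main scaling as a dot and the range over that and the 5 other scalings or corrections as a bar. Dotted lines mark 2-fold. The iTreg bars of the 5 GBPs lie wholly beyond 2-fold lower, and the bars of all 5 IRGs cross 0 in at least 1 culture. GBP bars cross 0 too, for Gbp7 in rested and Th1+TGFb and, barely, for Gbp3 in Th1+TGFb.

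The step from rested cells back into stimulation, in Th1reg against rested, separated members again. Gbp5 was 2.25-fold higher in Th1reg, while Gbp6 was 10.1-fold, Tgtp1 3.54-fold, Irgm2 2.93-fold and Gbp7 2.03-fold lower. Gbp2 differed by -0.28 log2 units. One of 10 members was 2-fold higher, against 27.7% of all genes, and 4 of 10 were 2-fold lower, against 20% of all genes. The members' median was -0.63 and that of all genes 0.29. Spike-in scaling raises every difference here by 1.47 log2 units: Gbp6 then stood at -1.86, Tgtp1 at -0.35, Irgm2 at -0.08 and Gbp7 turned to 0.45, while Gbp2, Gbp3, Igtp and Iigp1 turned to 1.19, 1.30, 1.05 and 1.29. Gbp5 stayed higher throughout but was under 2-fold with the median or the 75th percentile of detected probes. The second Gbp6 probe stood at 2.83 in rested and 1.03 in Th1reg. It was past 2-fold lower in the main scaling but under 2-fold with the spike-in shift. This comparison shares the rested array, with its marker levels given above, with the comparison of rested and Th1.

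Th1reg and Th1+TGFb had the same last medium, and differed in whether rest, and 4 more days, came before it. Gbp2 was 6.35-fold and Gbp6 3.52-fold lower in Th1reg, and both were past 2-fold lower under every scaling and correction tried. Gbp7 lay just under the threshold at -0.99. The count was 2 of 10 members lower, against 15.1% of all genes, and 0 of 10 higher, against 12.3%. Rest and the added days cannot be told apart.

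Th1reg and iTreg shared their last medium and differed in their start, from rested Th1 cells or from naive cells. Gbp7 was 3.23-fold higher in Th1reg, and no other member was 2-fold apart. That is 1 of 10 higher, against 15.8% of all genes, and 0 of 10 lower, against 12.1%. The members' median, 0.34, was close to that of all genes, 0.28. Gbp2 differed by -0.18 log2 units between these cultures and Gbp5 by 0.38, and Ifng mRNA was 137-fold higher in Th1reg. The medium of both cultures held the antibody against IFN-gamma, and a link between Ifng and these GBPs was not tested.

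Over all 7 comparisons, which share arrays and are not independent, the 5 GBPs gave 19 of 35 differences past 2-fold (54.3%) and the 5 IRGs 5 of 35 (14.3%). These counts use 1 probe per gene, the brightest. Over all genes, the share past 2-fold in either direction ran from 14.9% (Th1reg against Th1) to 47.7% (Th1reg against rested). Of the 19, 14 stayed past 2-fold in the same direction under all 5 other scalings and corrections, and of the 5 IRG differences 0 did. The deposited table is 1 of these settings and has nearly the main scaling, so its agreement adds little. Conversely, 6 of the 16 other GBP differences and 10 of the 30 other IRG differences passed 2-fold under at least 1 of those settings. Irgm1 and Iigp1 were under 2-fold apart in all 7 comparisons in the main scaling. Under other scalings Irgm1 reached 1.19 in rested against Th1 and -1.36 in Th1reg against rested, and Iigp1 reached 1.29 in Th1reg against rested and 1.31 in Th1reg against Th1+TGFb, and it also passed 2-fold higher in rested against Th1.

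The culture with the highest level differed between the neighbourhoods of the GBP genes. In the gene table's order, Gbp5, Gbp7, Gbp3, Gbp2b and Gbp2 are neighbours, and the 4 members among them were all highest in Th1. Gbp8, Gbp9, Gbp4, Gbp10 and Gbp6 are neighbours elsewhere, and all 5 were highest in rested. Gbp9, for example, stood at 0.73 in Th1, 2.29 in rested, -0.43 in Th1reg, 0.96 in Th1+TGFb and -0.05 in iTreg. Gbp4 stood at 3.59, 4.20, 1.93, 3.48 and 2.20 in the same cultures, 4.82-fold lower in Th1reg than in rested. Gbp8 was at 0.11 in Th1, 0.71 in rested, -1.90 in Th1reg and 0.48 in Th1+TGFb. In iTreg it was not well above background, at least 13.7-fold lower than in Th1. Gbp10 ran between -0.82 in rested and -2.66 in iTreg. The split depends on scaling: it was the same with normexp and in the deposited table, which has nearly the main scaling. With spike-ins the second group had 2 genes highest in rested, 2 in Th1+TGFb and 1 in Th1, and with the 75th percentile of detected probes the first group had 2 of 4 highest in Th1. Gbp2b was well above background in iTreg alone, at -2.39.

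Among the neighbours of the IRG members, Tgtp2 gave 7.43 in Th1, 8.63 in rested, 7.02 in Th1reg, 7.79 in Th1+TGFb and 7.46 in iTreg on its brighter probe, in the same order of cultures as its copy Tgtp1 except that Th1+TGFb stood above iTreg. The IRG gene Gm4841, a neighbour of Iigp1, stood at -0.66, 2.20, 1.52, 0.57 and -1.14, which is 7.28-fold higher in rested than in Th1 and 6.32-fold higher in Th1reg than in iTreg. Gm4951, next to it, ranged only from 0.88 in Th1 to 1.33 in Th1reg. Next to Igtp, the IRG gene Gm12250, which was added after values were seen, was highest in iTreg at 3.45 and lowest in Th1+TGFb at 1.85, the culture in which Igtp was lowest too. In the group of 15 other GBP, IRG and giant GTPase genes with a probe, 4 of 12 measured in both arrays were 2-fold higher in rested than in Th1 and 1 was lower, with a median of 0.75. In iTreg against Th1, 1 of 13 was higher and 2 were lower, with a median of -0.10. Over all genes 17.5% were higher and 26.7% lower in the first of these comparisons and 10.8% and 17.8% in the second. The giant GTPase gene Gvin1 was highest in rested at 6.21 and lowest in Th1reg at 5.21, with iTreg close to that at 5.23. Its second probe was also highest in rested, at 5.51, but lowest in iTreg at 4.15. Irgc1 and Atl1 were well above background on no array.

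**Figure D4:**
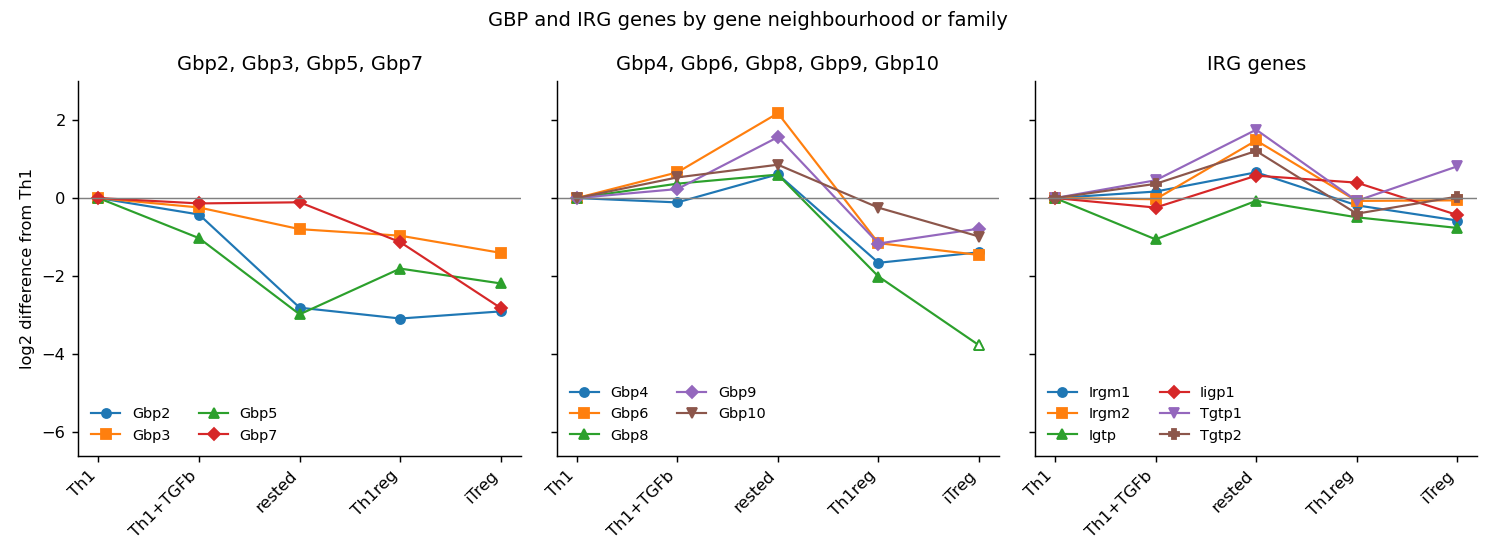
Log2 difference from the Th1 array (vertical axis) across the 5 cultures for the GBP genes next to Gbp2, the GBP genes next to Gbp6, and IRG genes, 1 line per gene. In the main scaling the first group lies below Th1 in every other culture, the second group peaks in rested, and the open symbol marks Gbp8 in iTreg, which was not well above background and is drawn at its bound.

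Ifng, which encodes the ligand of the pathway, had scaled log2 signals of 10.23 in Th1, 2.79 in rested, 8.37 in Th1reg, 9.56 in Th1+TGFb and 1.27 in iTreg. Rested and iTreg were thus 174-fold and 498-fold below Th1, while in the same comparisons Igtp differed by -0.07 and -0.77 log2 units, or by -1.23 and -0.48 with spike-ins. Gbp2 and Gbp5 were low in rested and iTreg, where Ifng was low. Ifng was 47.9-fold higher in Th1reg than in rested. In that comparison Gbp2 differed by -0.28 log2 units in the main scaling and by 1.19 with spike-ins, and Gbp5 by 1.17 and 2.64. Protein was not measured, and the antibody against IFN-gamma was present in all of these cultures but Th1.

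The receptor chains went different ways. Ifngr1, which binds the cytokine, stood at 5.07 in Th1, 7.16 in rested, 5.66 in Th1reg, 6.26 in Th1+TGFb and 4.10 in iTreg, 4.27-fold higher in rested than in Th1. Ifngr2, the signalling chain, stood at 0.17, 1.15, 1.14, 1.49 and 2.47, highest in iTreg and lowest in Th1. Jak1 was highest in rested at 5.87 and lay between 4.53 and 4.81 elsewhere, and Jak2 was lowest in rested at 3.96 and highest in Th1+TGFb at 4.97. Irf1, whose product acts on ISREs, lay between 5.62 in iTreg and 6.42 in Th1 and was less than 2-fold apart in all 7 comparisons in the main scaling. Spike-in scaling lowers each difference of rested from Th1 by 1.16 log2 units. That takes Irf1 past 2-fold lower in rested and Ifngr1 under 2-fold higher. Irf9 was highest in rested at 4.46 and lowest in iTreg at 3.25. Socs1, the feedback inhibitor of JAK signalling, was highest in Th1 at 5.86 and lowest in rested at 4.54, 2.50-fold apart.

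**Figure D5:**
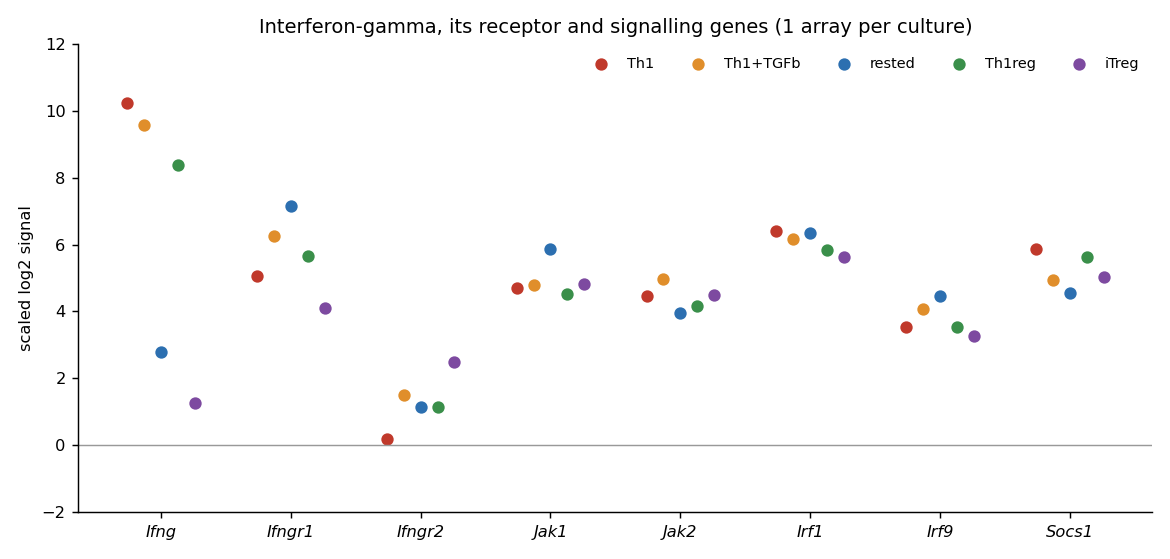
Scaled log2 signal (vertical axis) of Ifng and of receptor, kinase, transcription factor and inhibitor genes of its pathway, 1 point per culture. In the main scaling Ifng runs from 10.23 in Th1 to 1.27 in iTreg, Ifngr1 and Jak1 are highest in rested, and Irf1 lies between 5.62 and 6.42.

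The other genes of the interferon pathway were read as lists. The shares of all genes to set beside them, given above, were 17.5% higher and 26.7% lower in rested against Th1 (median -0.29), 10.8% higher and 17.8% lower in iTreg against Th1 (median -0.24), and 6.29% higher and 8.57% lower in Th1reg against Th1 (median 0.01). Of 10 genes for interferon receptors and their signalling, 3 were 2-fold higher and none lower in rested than in Th1, with a median of 0.88, and in Th1reg against Th1 none was 2-fold apart, with a median of 0.09. Ifnar1, a chain of the type I interferon receptor, was highest in iTreg at 3.15. Of 8 interferon-responsive transcription factors, 4 were lower and none higher in iTreg than in Th1 (median -1.02), and 3 were higher and 2 lower in rested. Irf8 stood at 6.94 in Th1, 0.91 in rested, 6.98 in Th1reg, 4.77 in Th1+TGFb and 5.41 in iTreg, 65.2-fold below Th1 in rested. Irf7 was highest in rested at 0.91 and lowest in iTreg at -2.69, and Sp100 was highest in rested at 1.43. Of 8 brakes on interferon signalling, 5 were lower and none higher in rested than in Th1 (median -1.27). Usp18, which limits signalling at the type I receptor, stood at 5.31, 2.59, -0.26, 2.44 and -0.72 and was 65.2-fold lower in iTreg than in Th1. Socs3 was lowest in Th1reg at 2.77, and Ptpn6 was lowest in rested at 4.16.

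Among 20 other IFN-gamma-inducible genes measured in iTreg and Th1, 7 were lower and 1 higher in iTreg, with a median of -0.77, against 17.8% lower and 10.8% higher over all genes (median -0.24). In rested 4 were lower and 1 higher, both shares below the 26.7% and 17.5% of all genes. Ly6a, encoding the surface protein Sca-1, was 8.80 in Th1, 7.01 in rested, 6.10 in Th1reg, 8.59 in Th1+TGFb and 0.92 in iTreg, 235-fold lower in iTreg than in Th1. Fas was lowest in Th1reg at 1.52, and Cd274, encoding PD-L1, was lowest in rested at -0.07. Of 23 type I interferon genes measured in rested and Th1, 9 were higher and 4 lower in rested (median 0.63), and in iTreg 11 of 22 were lower and 2 higher (median -1.01). The all-gene medians were -0.29 and -0.24. Rtp4 was highest in rested at 3.54 and lowest in Th1 at -2.88, and Cmpk2 likewise at 1.24 and -2.63. Oas3 was lowest in iTreg at -3.24, 25.4-fold below Th1. As with the members, spike-in scaling lowers each measured difference of rested from Th1 by 1.16 log2 units.

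Genes of GTPase partners were read the same way. The 12 genes for ATG8 conjugation and autophagy, which IRGs need for correct loading onto vacuoles, had 0 members 2-fold apart between Th1reg and Th1, and in iTreg 1 was higher and 2 lower than in Th1 (median -0.50), near the all-gene shares of 10.8% and 17.8%. Gabarapl1 was lowest in iTreg at 4.92, Map1lc3a was highest in Th1+TGFb at 1.32, and Gabarap was lowest in iTreg at 5.46. Of 8 measured GTPase partner and inflammasome genes, 3 were lower and 1 higher in iTreg than in Th1. Casp1 was highest in rested at 4.25 and lowest in iTreg at 0.56, 4.87-fold higher in Th1reg than in iTreg. Casp4 stood at 5.26 in Th1, 4.07 in rested, 4.15 in Th1reg, 5.30 in Th1+TGFb and 2.21 in iTreg, 8.27-fold below Th1 in iTreg, and Traf6 was highest in iTreg at 2.31. The IL-12 receptor genes Il12rb1 and Il12rb2, whose products drive Ifng in Th1 cells, were highest in Th1, at 6.35 and 2.27, and lowest in iTreg, at 1.56 and -2.68. The peak of Il12rb1 in Th1 rests on its brightest probe: with its probes averaged, Th1+TGFb stood 0.75 log2 units above Th1. In the list of inducing cytokines and receptors, 3 of 6 measured genes were lower and 1 higher in iTreg than in Th1.

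The 5 other genes whose profile over the 5 arrays was nearest to the members' median profile, by the root mean square difference of values centred on each gene's mean among 10706 genes, were Rabac1 (0.075 log2 units), Ccser2 (0.075), Sys1 (0.086), Sertad3 (0.087) and Sash3 (0.090). The median profile itself was 0.23 in Th1, 0.58 in rested, -0.29 in Th1reg, 0.30 in Th1+TGFb and -0.59 in iTreg. Among the members, Irgm1 lay nearest to it at 0.14, and Gbp2 and Gbp5 lay furthest at 1.22 and 1.08, so the median profile is close to Irgm1 and far from these GBPs. With 5 arrays, a small distance can arise from few values.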

How the data were processed

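RNA of 5 cultures was hybridised to 1 Agilent array each. The authors deposited scanner output made with Agilent Feature Extraction 10.7.1.1, per the submitters' processing notes. Its processed signal is a linear intensity, background-subtracted per the file headers and not scaled between arrays. The deposited value table is an intensity too. Between 99.7% and 99.8% of its probes lay within 0.01 log2 units of 1 ratio to the processed signal, with column medians of 0.0762 (Th1), 0.103 (Th1+TGFb), 0.123 (rested), 0.0693 (Th1reg) and 0.0925 (iTreg) and no centring per gene. Its column 75th percentiles ran from 1.002 (rested) to 1.005 (Th1). Each array's constant thus lay close to that array's 75th percentile, and the deposited table has nearly the main scaling used here.

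Control and outlier spots were left out and the spots of a probe averaged. Of 55681 probes, 28331 were named through RefSeq accessions in a gene table of GRCm38.p6, whose gene order also gave the neighbours. The array design names another build, so no probe positions are given. Of several probes of a gene the brightest on average was used (13 member probes, 3 members with more than 1). Log2 signals were scaled by each array's 75th percentile. A gene counted as higher or lower at 2-fold or more. Where 1 array was not well above background, its value was raised to the lowest signal well above background there, and the fold is at least as large as given. A gene dim in both cultures of a comparison was not used in it. The difference rule was tested on simulated data.

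The members and gene lists were chosen with earlier results of these data known. Named genes were the members, the named pathway genes, the measured family members, from each other list the 3 genes with the widest range among those well above background on all 5 arrays, and the 5 nearest profiles. Gm12250 and Gm12185 were added after values were seen. The interferon receptor list names only 1 gene by the range rule because others were named already, as does the list of inducing cytokines with 2. Some items of the lists are not reported here. List genes not analysed here for want of a named probe were Gbp11, Mx1, Mx2, Psme2, Serpina3g, Rnf213 and Trac. The alternatives were 3 other scalings, normexp (limma 3.58.1, offset 50, on median signals, because the files hold no mean signal), other filters, probe averages, the deposited table and thresholds of 1.5-fold and 3-fold. Python 3.11.15, pandas 2.3.3, numpy 2.4.6 and R 4.3.3 were used.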

Additional observations from a re-analysis of the deposited data

How the results depend on the processing

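With 1 array per culture no replicate could be left out, and all values rest on single cultures. No paired analysis was possible because each group has 1 sample. Of the recomputed counts of members, 124 stayed within 1.5 times the main count and 30 did not. All 10 members were well above background on all 5 arrays, so a change of filter could not alter their counts. The 124 thus include 16 counts without filter and floor and 14 with dim genes left out that were bound to stay. Another 16 came from the deposited table, which has nearly the main scaling, so they add little. The 30 counts that did not stay follow, with the cause not tested. Scaling to the 75th percentile of detected probes gave 5 members higher in rested than Th1, 0 lower in Th1+TGFb than Th1, 1 higher in iTreg than Th1, 0 higher in Th1reg than rested, 4 lower in Th1reg than Th1+TGFb, 1 lower in Th1reg than iTreg and 2 highest in Th1. The median of detected probes gave 0 lower in Th1+TGFb than Th1, 0 higher in Th1reg than rested, 1 lower in Th1reg than iTreg and 3 highest in Th1. Spike-in scaling gave 1 higher and 5 lower in rested than Th1, 2 lower in Th1reg than Th1, 1 higher in iTreg than Th1, 5 higher and 1 lower in Th1reg than rested, 2 higher in Th1reg than Th1+TGFb and 2 highest in rested. A 1.5-fold threshold gave 1 higher in Th1+TGFb than Th1, 1 higher in iTreg than Th1, 1 higher and 5 lower in Th1reg than Th1+TGFb, and 2 higher and 1 lower in Th1reg than iTreg. A 3-fold threshold gave 0 lower in Th1+TGFb than Th1, 2 lower in Th1reg than Th1, 3 lower in iTreg than Th1, and 0 higher and 2 lower in Th1reg than rested. Spike-in scaling also turned called differences of Th1reg from rested, to 0.45 for Gbp7, 0.13 for Jak1, 0.37 for Gbp10, 0.47 for Gvin1, 0.41 for Ifnar1, 0.13 for Socs3, 0.13 for Fas, 0.059 for Casp1, 0.13 for Il12rb2 and 0.38 for the type I interferon median, and that of Jak1 in rested from Th1 to -0.00335. Without filter and floor the median of the inducing cytokines in Th1reg against rested was -0.14. Averaging probes turned Il12rb1 in Th1+TGFb to 0.75, and normexp turned 9930111J21Rik2 in Th1reg against rested to -0.084. The all-gene median moved by up to 1.47 log2 units (spike-ins, Th1reg against rested).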

Other observations

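The IRG genes 9930111J21Rik1 and 9930111J21Rik2, which lie beside Tgtp1 and Tgtp2 in the gene order, were chosen after their values were seen and are given as values only. On its brighter probe 9930111J21Rik1 stood at scaled log2 signals of 2.06 in Th1, 4.42 in rested, 1.87 in Th1reg, 2.99 in Th1+TGFb and 3.28 in iTreg. That is 5.14-fold higher in rested than in Th1 and 5.86-fold lower in Th1reg than in rested. Its second probe gave -1.28, -0.29, -1.62, -1.12 and -1.06 in the same cultures. There rested was again highest but under 2-fold above Th1. 9930111J21Rik2 stood at -1.79, -2.76, -1.71, -1.40 and -2.60 in the same cultures, with rested the lowest. Gm12185, whose promoter window holds the GAS and ISRE pair 2 bases apart, was well above background on no array. F830016B08Rik, next to Iigp1 and Gm4841, ran from -3.04 in Th1 to -1.42 in rested.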
